A study of Mus musculus with 45 samples.

Results

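Interferon-stimulated genes are genes that cells switch on when interferon binds its receptor, and 46 of them, matched by symbol, were followed among the 23227 genes of deposited count tables from mouse liver RNA-seq. All 46 passed the filter on low counts that 14067 genes passed. The livers came from wild-type C57BL/6J mice that were 24 weeks old and had been fasted overnight. The mice had eaten a high-fat diet (HFD) for 16 weeks, HFD for 6 weeks, or chow. Mice on HFD for 16 weeks had started it when 8 weeks old and those on HFD for 6 weeks when 18 weeks old, so the length of the diet and the age at its start cannot be told apart. Mice of the 16-week HFD and chow groups were taken 15, 30, 60 or 120 min after insulin (1 U/kg, intraperitoneal), mice of all 3 diets after metformin in the drinking water (270 mg/kg per day), and mice of all 3 diets without either agent (basal). Each of the 14 groups held 3 libraries, except the 16-week HFD group 30 min after insulin, which held 6; this gave 21 libraries for 16-week HFD, 6 for 6-week HFD and 18 for chow. The labels speak of at least 3 mice per group and link no library to a mouse, so the p-values measure the spread between these libraries.

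Type I interferons bind the receptor made of IFNAR1 and IFNAR2, whose kinases JAK1 and TYK2 phosphorylate STAT2. It joins IRF9 in a complex that binds the interferon-stimulated response element (ISRE) in promoters. Type II interferon (IFN-gamma) acts through another element, the gamma-activated site (GAS). The induced proteins sense foreign nucleic acid, block viral replication, tag proteins with ISG15 or damp the pathway, and in liver they are best known from viral hepatitis, where hepatocytes and Kupffer cells, the resident macrophages, both make them.

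Libraries held 18.2 to 50.3 M counted reads. The summed level of 9 hepatocyte markers was 76007 to 163478 CPM in 16-week HFD, 112947 to 138472 CPM in 6-week HFD and 96808 to 166514 CPM in chow livers, so the labelled tissue was there in every library (CPM are read counts scaled to library size by TMM). Reads of 17 pancreatic acinar genes varied widely, with sums of 8.12 to 24004 CPM in 16-week HFD, 13.3 to 173 CPM in 6-week HFD and 8.77 to 3535 CPM in chow livers. Sums of 12 skeletal muscle genes were 0.426 to 449.8 CPM in 16-week HFD, 4.8 to 1633 CPM in 6-week HFD and 0.618 to 168 CPM in chow livers. None of the 17 acinar genes was called by edgeR in either basal comparison with chow (0 and 4 at an unadjusted p under 0.05, 0 and 1 by DESeq2, after 16 and 6 weeks of HFD). Of the 12 muscle genes, 6 were lower after 16 weeks and 4 were higher after 6 weeks of HFD. Of all tested genes 16.0% were called higher and 16.3% lower after 16 weeks, and 5.98% higher after 6 weeks. The part of carried-over tissue in the results was not tested.

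In basal livers nearly the whole set was higher on both fat diets. After 16 weeks of HFD, 41 of the 46 genes were higher and 1 was lower than on chow (edgeR quasi-likelihood test, adjusted p under 0.05). Of all tested genes 16.0% were called higher and 16.3% lower in that comparison. After 6 weeks, 42 of 46 were higher and 0 lower, against 5.98% of all genes called higher, and 44 of 46 had an unadjusted p under 0.05. The median log2 fold change of the 46 genes was 1.28 after 16 weeks, with a range of -0.67 to 2.40, and 1.33 after 6 weeks, with a range of -0.33 to 2.45. Over all tested genes the medians were 0.02 and 0.01. Both diets are set against the same 3 chow livers, so these are not independent comparisons. In bulk tissue, more RNA of a gene per cell and more cells that express it cannot be told apart.

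**Figure D1:**
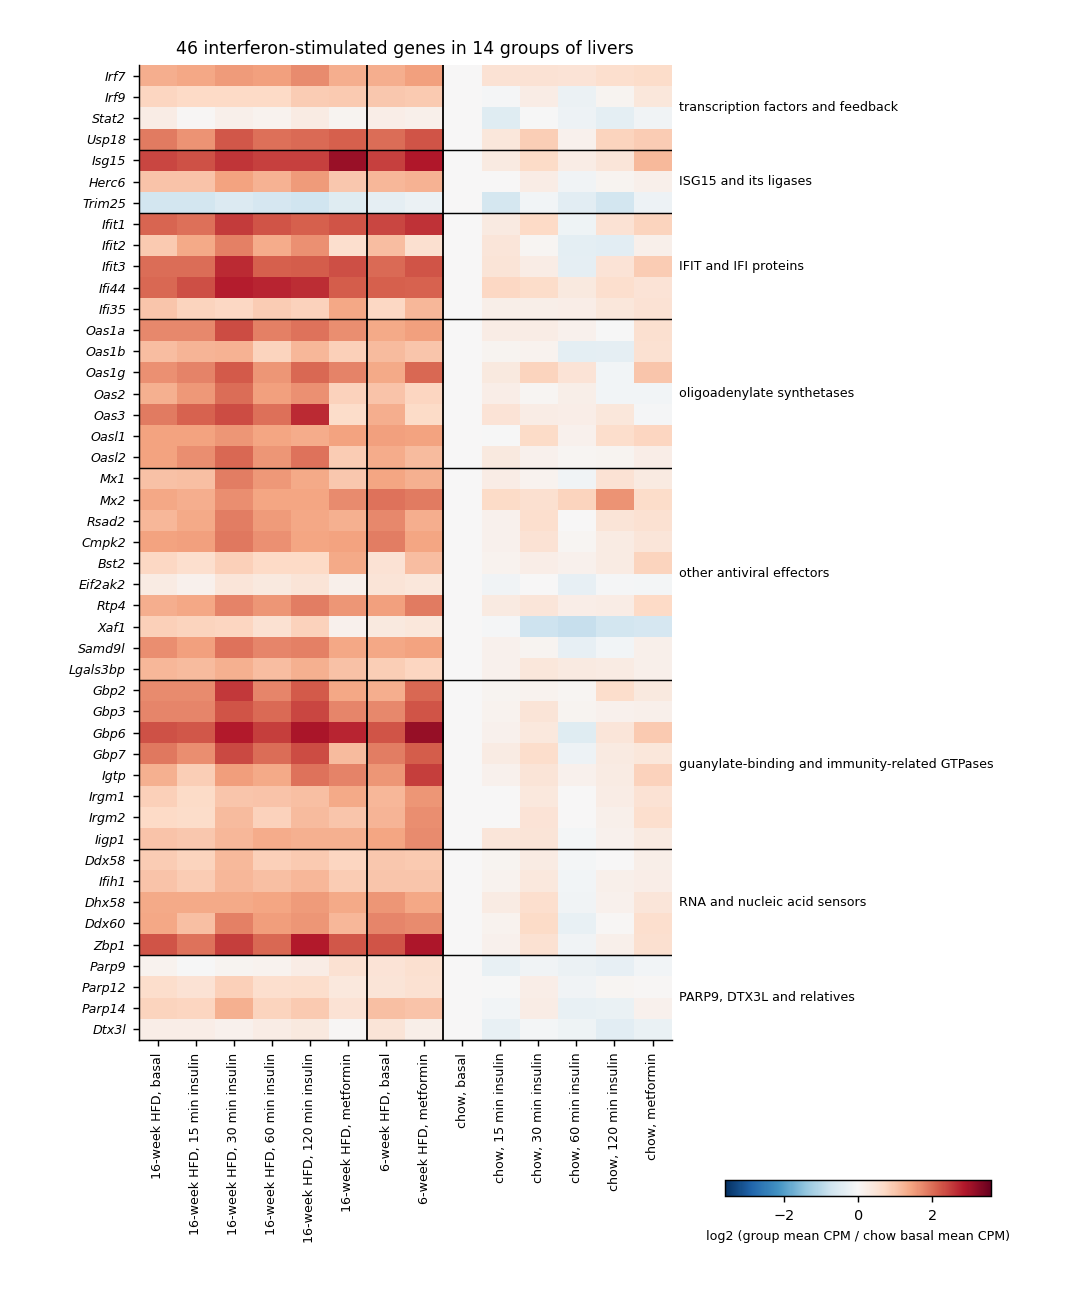
Colour gives, for each of 46 interferon-stimulated genes (rows, by role) and each of 14 groups (columns), the log2 ratio of the group's mean CPM to the mean CPM in basal chow livers. The highest ratio is 3.15 (Gbp6, 6-week HFD with metformin) and the lowest -0.84 (Xaf1, chow 60 min after insulin), and the Trim25 row is the one that is blue across the HFD columns.

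The mean log2 CPM over the 46 genes was 4.21 ± 0.03 in basal 16-week HFD, 4.27 ± 0.20 in basal 6-week HFD and 2.99 ± 0.08 in basal chow livers (SD, n = 3 each). Over all libraries of a diet it was 4.33 ± 0.22 on 16-week HFD (21 libraries, 4.01 to 4.86), 4.31 ± 0.26 on 6-week HFD (6 libraries, 3.99 to 4.70) and 3.14 ± 0.24 on chow (18 libraries, 2.72 to 3.69). The lowest HFD library therefore lay above the highest chow library.

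**Figure D2:**
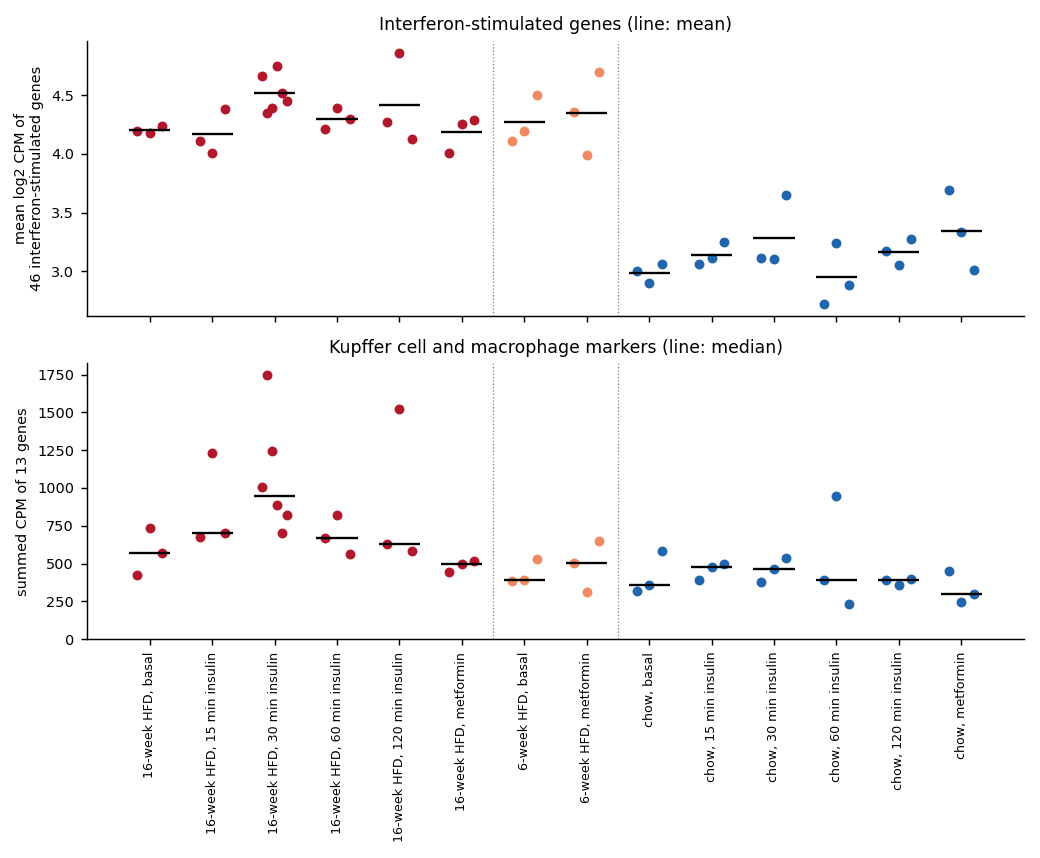
Each point is 1 library, by group: above, the mean log2 CPM of the 46 genes with the group mean as a line; below, the summed CPM of 13 Kupffer cell and macrophage markers with the group median as a line. In the upper panel all 27 HFD libraries (3.99 to 4.86) lie above all 18 chow libraries (2.72 to 3.69), while in the lower panel the diets overlap (422 to 1748, 311 to 648 and 235 to 947 CPM).

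Of the 46 genes, 34 had an entry in the RefSeq promoter table (GRCm38.p6, 250 bases before to 50 after the start). An ISRE, written GAAANNGAAA or TTTCNNTTTC on the other strand, stood in 19 of the 34 (55.9%), against 3.99% of the promoters of 27025 genes. A GAS, TTCNNNGAA on either strand, stood in 8 of the 34 (23.5%), against 9.55%, and 6 promoters held both; matches of the 2 motifs may overlap, as they do in Bst2. All 6 GTPase promoters and all 3 sensor promoters in the table held an ISRE, as did 3 of 5 of the oligoadenylate synthetases, 3 of 7 of the other antiviral effectors, 2 of 5 of the IFIT and IFI genes, 1 of 3 of the ISG15 group, 1 of 3 of the transcription factor group and 0 of 2 of the PARP group. The 160 bases before the start are given below for 5 genes that were higher on both fat diets and for Trim25, which was not; each runs 5′ to 3′ on the gene's strand and ends at the base before the start, and capitals mark ISRE and GAS matches. They show the ISRE alone, the ISRE with a GAS, and a window without either; a match is a stretch of letters and not a proven binding site.
Isg15 (chr4:156200819-156200978, minus strand): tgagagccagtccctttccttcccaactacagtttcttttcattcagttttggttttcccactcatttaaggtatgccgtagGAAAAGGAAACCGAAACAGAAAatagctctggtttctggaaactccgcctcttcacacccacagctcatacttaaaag
Ifit3 (chr19:34583369-34583528, plus strand): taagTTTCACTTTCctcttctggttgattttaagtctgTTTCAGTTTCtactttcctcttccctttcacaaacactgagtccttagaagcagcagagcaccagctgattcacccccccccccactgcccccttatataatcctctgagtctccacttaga
Oas1a (chr5:120907526-120907685, minus strand): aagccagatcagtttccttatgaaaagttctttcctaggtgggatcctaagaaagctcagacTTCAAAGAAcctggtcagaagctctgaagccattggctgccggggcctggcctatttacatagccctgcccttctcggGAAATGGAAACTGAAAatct
Gbp7 (chr3:142530176-142530335, plus strand): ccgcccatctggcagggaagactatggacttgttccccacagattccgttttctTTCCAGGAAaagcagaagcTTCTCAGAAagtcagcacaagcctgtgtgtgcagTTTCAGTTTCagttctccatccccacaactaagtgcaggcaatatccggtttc
Irgm2 (chr11:58214817-58214976, plus strand): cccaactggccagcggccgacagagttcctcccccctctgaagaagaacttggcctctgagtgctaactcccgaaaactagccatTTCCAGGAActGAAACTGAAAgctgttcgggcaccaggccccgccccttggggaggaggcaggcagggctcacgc
Trim25 (chr11:88999243-88999402, plus strand): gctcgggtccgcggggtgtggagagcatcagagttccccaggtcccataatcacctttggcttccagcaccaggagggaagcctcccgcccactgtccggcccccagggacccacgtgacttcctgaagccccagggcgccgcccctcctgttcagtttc
Isg15 held 3 overlapping ISRE matches that start at -78, -72 and -66 from the start of the gene. Ifit3 held 2 on the other strand, at -156 and -122. In Oas1a 2 overlapping matches at -20 and -14 followed a GAS at -98. Gbp7 held 2 GAS matches at -106 and -87 before an ISRE at -53, and in Irgm2 a GAS at -75 stood next to an ISRE at -64. Trim25 held neither motif in the window searched. The lack of an ISRE was not particular to it. Herc6, Ifit2, Ifi44 and Ifi35 held no ISRE in the window either and were higher on both fat diets in basal livers. Stat2 held an ISRE and was called on neither. On the chromosomes the 46 genes are clustered, with 8 on chromosome 5, 7 of them oligoadenylate synthetase genes, 8 on chromosome 11 and 6 on chromosome 16.

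In each role group the gene with the smallest adjusted p over the 6 states of 16-week HFD and chow is given with its value in every basal liver. Among the transcription factors and feedback genes this was Usp18 (chr6:121195924-121220935, plus strand, mm9), the protease that removes ISG15 and blocks the type I receptor. It had 18.7, 14.8 and 22.2 CPM on 16-week HFD and 14, 20 and 27 CPM on 6-week HFD, against 5.56, 5.13 and 4.46 CPM on chow. Every basal HFD liver lay above every basal chow liver. The log2 fold change against chow was 1.87 ± 0.32 (SE) after 16 weeks (adjusted p = 2.96e-05) and 2.00 ± 0.32 after 6 weeks (adjusted p = 5.94e-05). Irf7, which amplifies interferon production, had 42, 39.5 and 33.9 CPM on 16-week HFD and 33.3, 36 and 47 CPM on 6-week HFD, against 16.1, 12.5 and 18.4 CPM on chow. Irf9, the DNA-binding partner of STAT2, was also called higher on both diets, with log2 fold changes of 0.77 ± 0.16 and 0.97 ± 0.16. Stat2 was not, with 0.25 ± 0.15 (adjusted p = 0.193) and 0.23 ± 0.15 (adjusted p = 0.346). Thus 3 of the 4 genes of this group were higher on each diet.

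Isg15 (chr4:155573533-155574927, minus strand, mm9) encodes the ubiquitin-like protein that is coupled to other proteins after interferon. It had 14.6, 12 and 10.8 CPM on 16-week HFD and 10.1, 12.8 and 15.7 CPM on 6-week HFD, against 2.32, 2.62 and 2.12 CPM on chow. The groups did not overlap, and the log2 fold changes of 2.40 ± 0.30 (adjusted p = 3.51e-07) and 2.45 ± 0.30 (adjusted p = 1.60e-06) were the highest of the 46 genes on either diet. Herc6, the main ligase for ISG15 in the mouse, rose by 1.03 ± 0.20 and 1.20 ± 0.20 on the log2 scale.

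Trim25 was the exception. It encodes a ubiquitin ligase that also couples ISG15 and that assists RIG-I, the sensor encoded by Ddx58. It had 114, 115 and 115 CPM on 16-week HFD and 141, 157 and 139 CPM on 6-week HFD, against 178, 201 and 171 CPM on chow. All basal HFD livers lay below all basal chow livers. The log2 fold change was -0.67 ± 0.13 after 16 weeks (adjusted p = 9.92e-05) and -0.33 ± 0.13 after 6 weeks, which was not called (adjusted p = 0.0847). Over the states it was less steady: 16-week HFD livers 30 min after insulin were lower than chow livers at that time (-0.39 ± 0.11, adjusted p = 0.00453), while the differences at 15 min (-0.00 ± 0.13, adjusted p = 0.989) and 120 min (-0.05 ± 0.13, adjusted p = 0.786) were not called. Over all libraries it ranged from 105 to 167 CPM on 16-week HFD, 139 to 183 CPM on 6-week HFD and 106 to 201 CPM on chow, so the diets overlapped. Trim25 was the only one of the 46 that was called higher in none of the 8 comparisons of an HFD with chow in a single state.

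**Figure D3:**
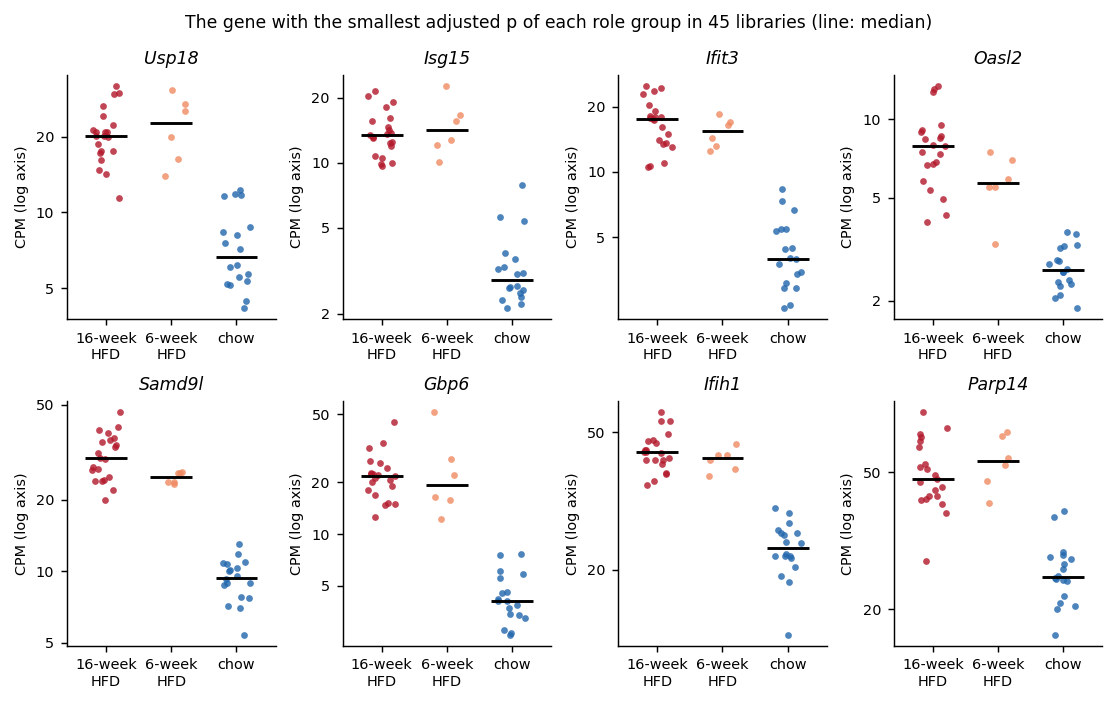
CPM on a log axis in each of 45 libraries, by diet (21 libraries of 16-week HFD, 6 of 6-week HFD and 18 of chow), for the gene with the smallest adjusted p in each of 8 role groups, with the median of each diet as a line. In Isg15, Ifit3, Samd9l, Gbp6 and Ifih1 all HFD points lie above all chow points; in Usp18, Oasl2 and Parp14 the diets overlap.

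All 5 IFIT and IFI genes were higher on both fat diets, with median log2 fold changes of 2.00 after 16 weeks and 2.05 after 6 weeks. IFIT proteins bind foreign RNA and limit its translation. Ifit3 had 13, 10.6 and 17.8 CPM on 16-week HFD and 12.5, 13.2 and 17 CPM on 6-week HFD, against 3.47, 3.95 and 2.92 CPM on chow (log2 fold changes of 2.00 ± 0.27 and 2.05 ± 0.27, adjusted p = 1.35e-06 and 5.48e-06). The groups were separate, but 56.2% of the 40-base words of its transcripts also occur in other genes, most often in I830012O16Rik. Its count is therefore uncertain. Ifit1 had 19.8, 17.2 and 19.4 CPM on 16-week HFD and 19.8, 23.5 and 26.8 CPM on 6-week HFD, against 4.21, 5.07 and 4.03 CPM on chow. Ifit2 moved less (0.95 ± 0.27 and 1.12 ± 0.27), as did Ifi35 (0.99 ± 0.15 and 0.74 ± 0.14). Ifi44 was low, with 3.46, 3.89 and 4.28 CPM on 16-week HFD and 3.25, 4.31 and 4.84 CPM on 6-week HFD, against 1.08, 0.801 and 0.902 CPM on chow.

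Oligoadenylate synthetases make the messenger that activates RNase L, which degrades RNA; the Oasl proteins are relatives, and Oas1b of C57BL/6J carries a premature stop. All 7 genes were higher on both diets, with median log2 fold changes of 1.44 and 1.33. Oasl2 had 4.93, 7.5 and 7.36 CPM on 16-week HFD and 5.5, 5.49 and 7.5 CPM on 6-week HFD, against 2.57, 1.87 and 2.87 CPM on chow (1.43 ± 0.27 and 1.33 ± 0.27, adjusted p = 0.000125 and 0.0012), with no overlap. Oas1a and Oas1g share 63.2% and 50.4% of their words with other genes, most often with each other. Their log2 fold changes of 1.71 ± 0.38 and 1.67 ± 0.36 after 16 weeks and 1.34 ± 0.37 and 1.37 ± 0.35 after 6 weeks are therefore uncertain. All 7 were weakly expressed per transcript length. In basal livers Oas3 stood at 0.738 CPM per kb on 16-week HFD, 0.491 on 6-week HFD and 0.2 on chow, while the most abundant of the 7, Oasl1, stood at 6.6, 6.65 and 2.4.

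Of the 10 other antiviral effectors, 9 were higher after 16 weeks and 8 after 6 weeks (medians 1.19 and 1.40). Samd9l, an inhibitor of viral translation, had 24, 26.9 and 38.1 CPM on 16-week HFD and 23.8, 25.8 and 23.3 CPM on 6-week HFD, against 8.94, 9.56 and 9.24 CPM on chow. Its log2 fold changes were 1.68 ± 0.22 (adjusted p = 5.77e-07) and 1.40 ± 0.22 (adjusted p = 4.17e-05), and the groups were far apart. Rsad2 (viperin) and its neighbour Cmpk2, which together feed the making of a chain-terminating nucleotide, rose by 1.19 ± 0.28 and 1.46 ± 0.27 after 16 weeks and by 1.73 ± 0.28 and 1.87 ± 0.27 after 6 weeks. Mx1 and Mx2 encode dynamin-like GTPases, and Mx1 of C57BL/6J carries a large deletion; both genes were higher on both diets. The 16-week call that was missed was Eif2ak2, the kinase PKR (0.31 ± 0.14, adjusted p = 0.0925). The 6-week calls missed were Bst2, which tethers budding virus (0.52 ± 0.18, adjusted p = 0.0552), and Xaf1, a pro-apoptotic factor (0.39 ± 0.23, adjusted p = 0.309).

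All 8 guanylate-binding and immunity-related GTPases, which attack the vacuoles of intracellular pathogens and answer strongly to IFN-gamma, were higher on both diets (medians 1.50 and 1.51). Gbp6 had 14.8, 16.9 and 21.1 CPM on 16-week HFD and 12.3, 16.4 and 22.2 CPM on 6-week HFD, against 3.24, 3.36 and 4.09 CPM on chow. This separation corresponded to log2 fold changes of 2.31 ± 0.34 (adjusted p = 3.92e-06) and 2.26 ± 0.34 (adjusted p = 2.87e-05). Gbp6 shares 72.3% of its words with other genes, most often with Gm43302, and is uncertain. Iigp1 had 360.1, 297 and 295 CPM on 16-week HFD and 414, 382 and 466 CPM on 6-week HFD, against 152, 148 and 168 CPM on chow. Its log2 fold changes were 1.03 ± 0.21 and 1.43 ± 0.22. Per transcript length, Iigp1 at 102, 135 and 49.9 CPM per kb and Bst2 at 122, 105 and 72.8 were the 2 most abundant of the 46 genes in basal 16-week HFD, 6-week HFD and chow livers.

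All 5 sensors of RNA and other nucleic acid were higher on both diets (medians 1.36 and 1.57). Ifih1, the RNA helicase MDA5, had 40.5, 41.5 and 47.2 CPM on 16-week HFD and 37.4, 41.6 and 46.3 CPM on 6-week HFD, against 21.7, 19.2 and 21.9 CPM on chow. It rose by 1.04 ± 0.16 (adjusted p = 8.09e-06) and 0.99 ± 0.16 (adjusted p = 8.28e-05), without overlap. Zbp1, a sensor of Z-form nucleic acid that can trigger necroptosis, had 11, 11.9 and 8.95 CPM on 16-week HFD and 9.26, 8.25 and 14.1 CPM on 6-week HFD, against 2.09, 1.39 and 3.08 CPM on chow.

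The PARP group moved least, with medians of 0.44 and 0.48; 2 of its 4 genes were higher after 16 weeks and 4 of 4 after 6 weeks. Parp14, an ADP-ribosyltransferase, had 41.8, 51.2 and 45.3 CPM on 16-week HFD and 52.6, 47.2 and 65.7 CPM on 6-week HFD, against 24.2, 26.2 and 28.3 CPM on chow (0.81 ± 0.20 and 1.07 ± 0.20, adjusted p = 0.00169 and 0.000426), with no overlap. Parp9 and its partner Dtx3l, a ubiquitin ligase, were not called after 16 weeks (0.11 ± 0.14, adjusted p = 0.574, and 0.25 ± 0.13, adjusted p = 0.136). After 6 weeks they were higher by 0.48 ± 0.14 and 0.47 ± 0.13. Their exons overlap on opposite strands and the libraries did not keep strand, so some of their reads cannot be told apart.

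**Figure D4:**
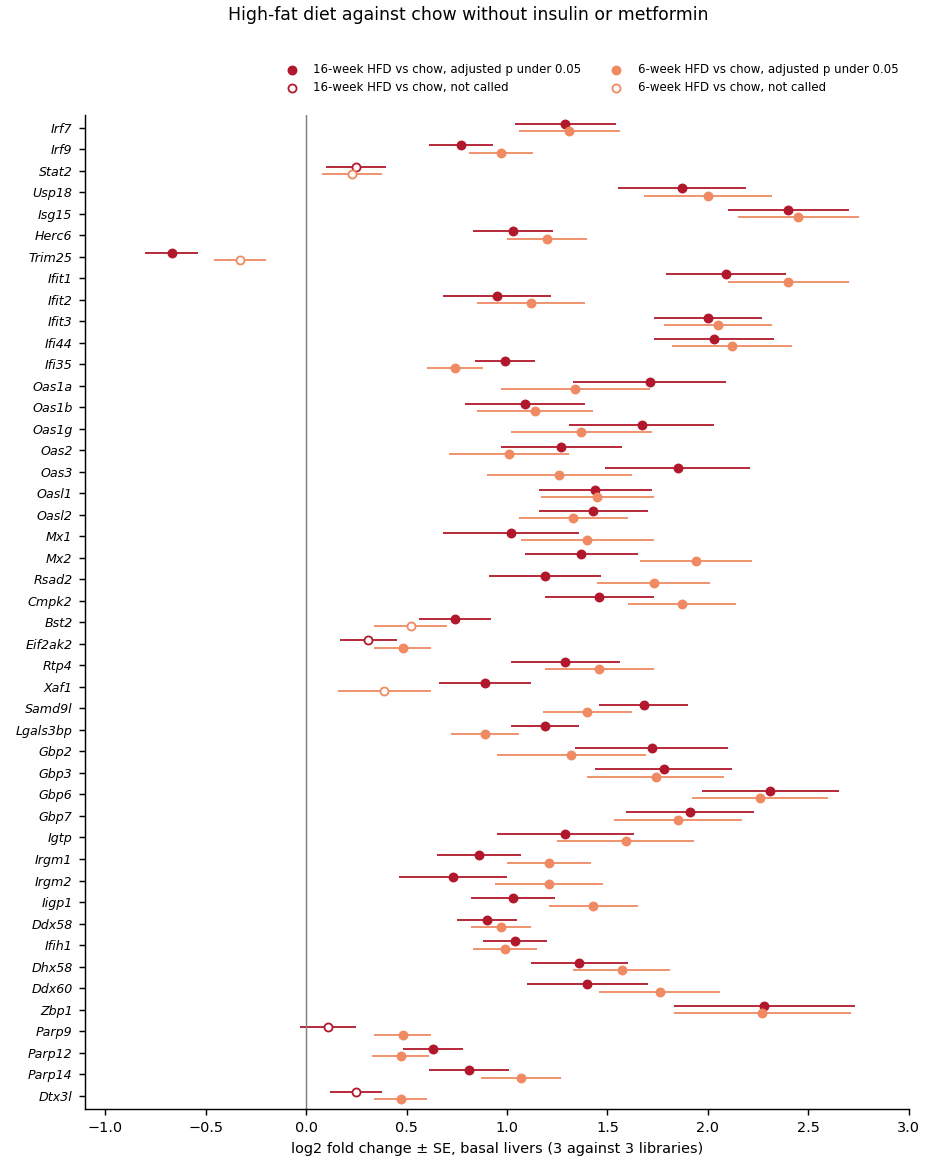
Log2 fold change ± SE against basal chow livers for each of the 46 genes, by role, after 16 and after 6 weeks of HFD. After 16 weeks 45 of 46 and after 6 weeks 45 of 46 lie above 0, with Trim25 the exception on both.

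Direct comparison of the durations called 0 of the 46 genes in basal livers, while 10.2% of all genes differed. The median difference, 16 minus 6 weeks, was -0.06 (range -0.57 to 0.59, 18 of 46 positive), the SE of a gene was 0.13 to 0.40, and 4 genes had an unadjusted p under 0.05. These were Parp9 (-0.37 ± 0.14, adjusted p = 0.0874), Trim25 (-0.34 ± 0.13, adjusted p = 0.0738), Mx2 (-0.57 ± 0.26, adjusted p = 0.162) and Xaf1 (0.50 ± 0.23, adjusted p = 0.154). DESeq2 called 1 gene lower after 16 weeks. The differences were -0.05 ± 0.27 for Isg15, -0.13 ± 0.29 for Usp18, 0.29 ± 0.21 for Samd9l and 0.05 ± 0.31 for Gbp6. In metformin livers 0 of 46 genes differed between the durations as well (0.0213% of all genes; 5 genes at an unadjusted p under 0.05; 0 by DESeq2), with a median of -0.17.

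The diet difference recurred in livers that the basal comparison did not use. Against chow livers in the same state, 16-week HFD livers had 37 of 46 genes higher and 0 lower 15 min after insulin (background 12.3% higher; median log2 fold change 1.00), 42 higher and 1 lower at 30 min (20.1% higher and 17.2% lower; 1.16), 42 and 0 at 60 min (10.9%; 1.35), and 42 and 0 at 120 min (14.5%; 1.32). With metformin 28 were higher and 0 lower after 16 weeks (11.2%; 0.76), and 32 and 0 after 6 weeks (2.27%; 0.96). Both metformin comparisons use the same 3 chow livers, so they are not independent of each other. The counts with metformin rest on few livers. Without replicate 3 of the chow metformin group, the lowest of its 3 libraries in Usp18, Isg15 and Gbp6, they were 16 after 16 weeks and 15 after 6 weeks, and without replicate 3 of the 6-week HFD metformin group 18 after 6 weeks. A fit of only the groups compared called 9 after 16 weeks and 13 after 6 weeks. Of all genes that fit called 285 and 476, against 2871 and 623 in the fit of all groups. Averaged over the 6 states, 45 genes were higher and 1, Trim25, was lower on 16-week HFD, where 33.5% and 29.1% of all genes were called. Of the 46 genes, 19 were called higher in all 8 single-state comparisons of an HFD with chow, 11 in 7, 8 in 6, 3 in 5, 3 in 4 and 1, Stat2, in 2. The share of all genes called so often was not computed, so these counts have no background beside them. The 8 comparisons are not independent, because both fat diets share the basal and the metformin chow livers.

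In 12 of the 46 genes each of the 27 HFD libraries lay above each of the 18 chow libraries, whatever the state; 0.547% of all tested genes did so. They were Isg15, Herc6, Ifit1, Ifit3, Ifi44, Samd9l, Gbp3, Gbp6, Iigp1, Ddx58, Ifih1 and Zbp1. Samd9l had a low of 19.9, a median of 29.8 and a high of 46.7 CPM on 16-week HFD and 23.3, 24.8 and 26.2 CPM on 6-week HFD, against 5.41, 9.4 and 13 CPM on chow. Isg15 had 9.64, 13.5 and 21.6 CPM on 16-week HFD and 10.1, 14.2 and 22.8 CPM on 6-week HFD, against 2.12, 2.86 and 7.87 CPM on chow. Iigp1 and Ifit1 were separate by little: the lowest HFD and the highest chow library stood at 248 and 243 CPM for Iigp1 and at 11.3 and 11.2 CPM for Ifit1. In Usp18, Irf7, Oasl2, Rtp4, Lgals3bp and Gbp2 exactly 1 HFD library fell to or below the highest chow library, whereas in Mx2 21 and in Bst2 18 of the 27 did.

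**Figure D5:**
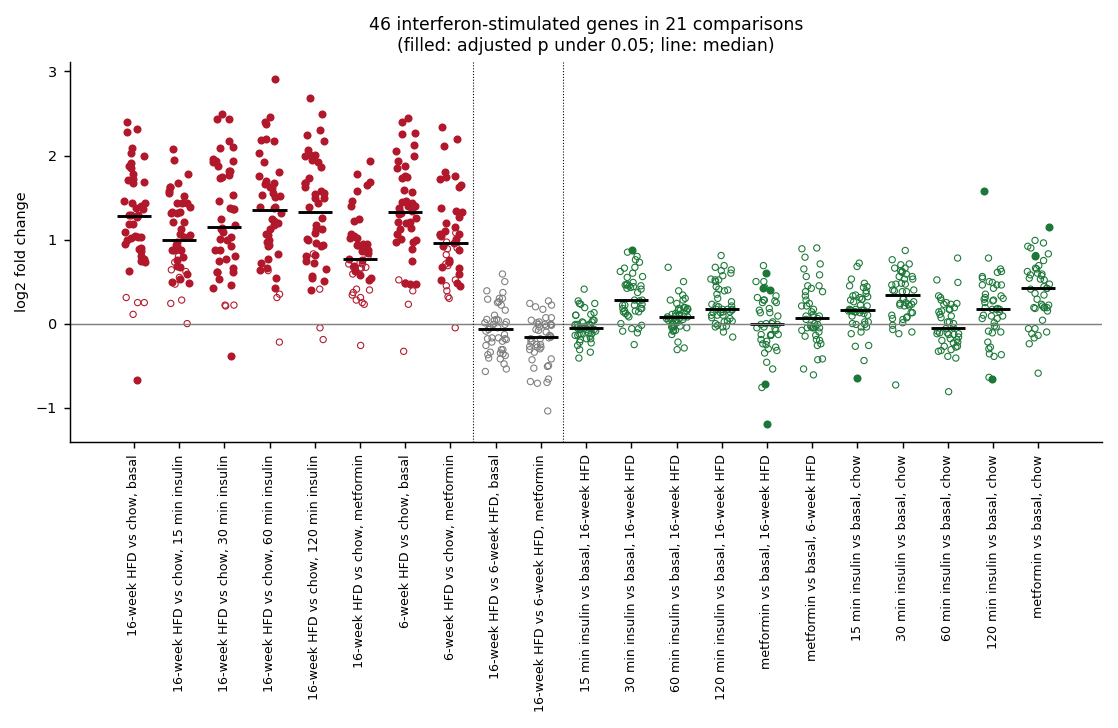
Log2 fold changes of the 46 genes (1 point each, filled at an adjusted p under 0.05, with the median as a line) in 21 comparisons: HFD against chow, 16-week against 6-week HFD, and insulin or metformin against basal livers. The medians of the HFD comparisons with chow are 0.76 to 1.35, those of 16-week against 6-week HFD -0.06 and -0.17, and those of insulin and metformin -0.06 to 0.42.

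Few of the genes, and few of all tested genes, were called after insulin. On chow, 0 genes were higher and 1 lower at 15 min (0.448% of all genes were lower), 0 were called at 30 min (0.0711%), 0 at 60 min (1.39%), and 1 was higher and 1 lower at 120 min (2.43% higher and 2.64% lower). On 16-week HFD the counts were 0 at 15 min (0%), 1 higher at 30 min (1.78%), 0 at 60 min (0.00711%) and 0 at 120 min (0%). Log2 fold changes were positive in 36, 41, 22 and 33 of 46 genes on chow at 15, 30, 60 and 120 min (medians 0.16, 0.34, -0.06 and 0.18). They were positive in 15, 39, 33 and 40 on 16-week HFD (medians -0.05, 0.28, 0.08 and 0.17). All times of a diet are set against the same 3 basal livers, so these are not independent. Where edgeR called 0, 12 and 3 genes on chow at 30 and 60 min and 0, 1 and 6 on 16-week HFD at 15, 60 and 120 min had an unadjusted p under 0.05, and DESeq2 called 0 and 1 on chow and 0, 0 and 0 on 16-week HFD.

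The gene that was lower on chow was Trim25 at both times. It had 113, 128 and 109 CPM at 15 min and 106, 108 and 134 CPM at 120 min, against 178, 201 and 171 CPM in basal chow livers, without overlap. The log2 fold changes were -0.65 ± 0.13 (adjusted p = 0.0049) and -0.66 ± 0.13 (adjusted p = 0.00124). At 15 min the call was lost without replicate 3 of the insulin group (-0.61) or replicate 2 of the basal group (-0.58). Mx2 rose in chow livers at 120 min, with 5.38, 10.1 and 9.01 CPM against 3.13, 2.03 and 2.87 CPM in basal chow livers (1.58 ± 0.28, adjusted p = 0.000508). On 16-week HFD it had 6.8, 7.73 and 6.81 CPM at 120 min and 9.08, 7.23 and 4.76 CPM in basal livers, which overlap. The difference between these responses, 16-week HFD minus chow, was -1.56 ± 0.38 (adjusted p = 0.04; 0.839% of all genes differed). That call was lost in 9 of the 12 fits that left out 1 library each. It was also lost when only these 4 groups were fitted (adjusted p = 0.0605), which called Trim25 instead (0.63 ± 0.14, adjusted p = 0.0434). Ifit2 rose on 16-week HFD at 30 min, with 12.3, 7.38, 7.38, 10.8, 8.4 and 8.44 CPM in those livers, a low of 7.38, against 4.29, 4.43 and 6.22 CPM in basal 16-week HFD livers (0.87 ± 0.23, adjusted p = 0.0306). This call was lost without replicate 1 or 4 of the insulin group or replicate 1 or 2 of the basal group (0.77 to 0.82). The edgeR fit of only these groups lost it as well (0.87, adjusted p = 0.0974). At the other times 0 of 46 responses differed between the diets by edgeR or DESeq2; 1, 3 and 1 had an unadjusted p under 0.05 at 15, 30 and 60 min, and 0.00711%, 0% and 0% of all genes were called.

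Metformin called 2 genes higher on chow (1.27% of all genes were higher), 0 on 6-week HFD (3.17% were called in either direction) and 3 higher and 2 lower on 16-week HFD (16.9% higher and 11.5% lower). The median log2 fold change on chow was 0.42, with 38 of 46 positive and 18 at an unadjusted p under 0.05. It was 0.07 on 6-week HFD with 25 positive, and -0.01 on 16-week HFD with 22 positive and 9 at an unadjusted p under 0.05. On chow, Isg15 had 7.87, 5.59 and 2.22 CPM with metformin, against 2.32, 2.62 and 2.12 CPM in basal livers; 1 of the 3 metformin livers lay among the basal ones. Its log2 fold change was 1.15 ± 0.31 (adjusted p = 0.043), and the call was lost in 5 of the 6 fits that left out 1 library each, with 0.72 without the highest library, replicate 1. Bst2 had 97.8, 105 and 89.6 CPM with metformin, against 59.5, 51 and 56.8 CPM in basal chow livers, and did not overlap (0.81 ± 0.18, adjusted p = 0.0115). This call was lost without replicate 2 of the metformin group (0.75, adjusted p = 0.0887) and without replicate 2 (0.75, adjusted p = 0.103) or 3 (0.82, adjusted p = 0.0534) of the basal group.

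On 6-week HFD 7 genes had an unadjusted p under 0.05 for metformin, and DESeq2 and the fit with the replicate number as a block each called 1. On 16-week HFD, Bst2 had 186, 127 and 113 CPM with metformin, against 99.3, 77.1 and 104 CPM in basal livers (0.60 ± 0.18, adjusted p = 0.0118). Parp9 had 93.9, 85.9 and 83 CPM with metformin, against 65.8, 66.7 and 63.2 CPM (0.42 ± 0.14, adjusted p = 0.0221), and Ifi35 rose by 0.40 ± 0.14 (adjusted p = 0.0329). Oas3 fell to 0.694, 1.91 and 1.9 CPM with metformin, against 3.09, 3.3 and 4.06 CPM in basal 16-week HFD livers (-1.20 ± 0.36, adjusted p = 0.0115). Xaf1 fell to 7.86, 6.18 and 7.51 CPM, against 12.7, 11.4 and 11.5 CPM (-0.72 ± 0.23, adjusted p = 0.0188). The groups of Bst2, Parp9, Oas3 and Xaf1 did not overlap. All 9 metformin libraries had lower counts in genes with long exons, with rank correlations of -0.61 to -0.13 between a gene's deviation and its exon length. Replicate 1 of the basal 16-week HFD group, at -0.22, lay within that range. With trends for exon length and GC content removed, Bst2 at 0.24 (adjusted p = 0.318) and Ifi35 at 0.15 (adjusted p = 0.375) were no longer called on 16-week HFD. Without replicate 1 of the metformin group, which had the correlation of -0.61, 1 gene was called, and without replicate 2 or 3 of the basal group 2 were. A fit of only the basal and metformin groups of 16-week HFD called 0 of the 5 genes (adjusted p of 0.131 to 0.355) and 14 of all genes. The response on 16-week HFD minus that on chow had a median of -0.39 over the 46 genes, with 3 of 46 positive; 0 genes were called by edgeR or DESeq2, 4 had an unadjusted p under 0.05, and 4.96% of all genes were called. For 6-week HFD the median was -0.24 with 10 of 46 positive, 0 genes were called by either tool, 2 had an unadjusted p under 0.05, and 0.0427% of all genes were called.

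The genes varied together between libraries. The Pearson correlation of a gene's log2 CPM with the mean of the other 45 had a median of 0.92 over 45 libraries and was above 0.8 in 38 genes, ranging from -0.28 for Trim25 to 0.97. These libraries share the diet difference. Within the 21 libraries of 16-week HFD the median was 0.70 and within the 18 chow libraries 0.71, and 8 and 12 genes were above 0.8. Herc6 was highest in 16-week HFD at 0.91 and Dhx58, a regulator of the RNA sensors, in chow at 0.91. Ifi35 at -0.17, Bst2 at 0.00 and Parp9 at 0.06 did not follow the others on 16-week HFD. At 30 min of insulin on that diet, replicates 1 to 3 and 4 to 6 differed in their trend with GC content. Rank correlations of a gene's deviation with GC were 0.19, 0.22 and 0.21, then -0.22, -0.19 and -0.13. Bst2 had 130.1, 118 and 107, then 83.4, 78.6 and 83.2 CPM. Parp9 had 57.5, 50.2 and 56.7, then 79.9, 78.5 and 63.5 CPM, while Ifi35 overlapped. The part of this split in the correlations was not tested. Libraries of a group differed too: the mean log2 CPM of the 46 genes was 4.13 to 4.86 in 16-week HFD livers 120 min after insulin, and on chow 3.10 to 3.65 at 30 min of insulin and 3.01 to 3.69 with metformin.

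Among 11920 genes with a mean of at least 1 CPM, those outside the set whose log2 CPM followed its mean closely over the 45 libraries included Gbp10, with a correlation of 0.963. It averaged 15.9 CPM on 16-week HFD and 1.51 CPM on chow. Others were I830012O16Rik (0.959), which shares words with Ifit3, Uba7 (0.958), the activating enzyme for ISG15, Trim30d (0.954), Shisa5 (0.953), Gm12250 (0.948), Ifitm3 (0.938), which blocks viral entry, the immunoproteasome subunit Psmb8 (0.937) and the peptide transporter Tap1 (0.935).

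The rest of the pathway was read from lists of genes outside the set. Of 19 interferon genes in the tables none passed the filter on low counts and 14 had no read. The 19 together had 31 reads in 468 M on 16-week HFD, 32 in 197 M on 6-week HFD and 38 in 435 M on chow, or 0.0662, 0.162 and 0.0874 reads per M. Ifnb1 had 1 read, in a chow liver, and Ifng had 12 reads on 16-week HFD, 22 on 6-week HFD, 11 of them in 1 library, and 7 on chow. With so few reads their messages were not tested between the diets.

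Of 16 genes of antigen processing and class I presentation, 10 were higher in basal livers after 16 weeks and 7 after 6 weeks, with none lower, where 16.0% and 5.98% of all genes were called higher. Psmb8 rose by 1.46 ± 0.24 and 1.14 ± 0.24, and Psmb9 by 1.79 ± 0.32 and 1.37 ± 0.32. Of 56 other interferon-induced genes, 30 were higher and 1 lower after 16 weeks, and 26 and 0 after 6 weeks. The largest of the named changes was that of Gbp10, with 3.78 ± 0.48 and 3.39 ± 0.47, and Ifitm3 rose by 1.57 ± 0.17 and 1.21 ± 0.17. For the next lists the share of higher genes in basal livers after 16 weeks lay near that of all genes, which was 16.0% higher and 16.3% lower. Of 20 sensors and adaptors outside the set, 4 were higher and 1 lower after 16 weeks, and 0 were called after 6 weeks (3 at an unadjusted p under 0.05, 0 by DESeq2). Of 11 negative regulators, 2 were higher and 2 lower after 16 weeks, and 0 were called after 6 weeks (5 at an unadjusted p under 0.05, 1 by DESeq2). In other states more of the 20 sensors and adaptors were higher on 16-week HFD. The counts were 4, 12, 5 and 10 at 15, 30, 60 and 120 min of insulin, where 12.3%, 20.1%, 10.9% and 14.5% of all genes were higher. With metformin 2 were (11.2%). Averaged over the 6 states 15 were higher and 1 lower, and of the negative regulators 4 and 3 (33.5% and 29.1% of all genes). In basal livers the medians of all 4 lists, in this order, were 0.43, 0.70, 0.27 and 0.20 after 16 weeks and 0.42, 0.59, 0.08 and 0.15 after 6 weeks.

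Markers of other liver cells were read beside the set. Of 13 genes of Kupffer cells and macrophages, 1 was higher in basal 16-week HFD livers, Mpeg1 (1.14 ± 0.38), and 0 in basal 6-week HFD livers (0 at an unadjusted p under 0.05, 0 by DESeq2); the medians were 0.41 and 0.05. Their summed level was 422 to 733 CPM in basal 16-week HFD, 386 to 530.0 CPM in basal 6-week HFD and 318 to 583 CPM in basal chow livers, so all overlapped, and none of the 13 was at 0. In the insulin states 5, 11, 2 and 9 of the 13 were higher on 16-week HFD than on chow at 15, 30, 60 and 120 min, where 12.3%, 20.1%, 10.9% and 14.5% of all genes were. Averaged over the 6 states 12 of the 13 were higher (33.5% of all genes), with a median log2 fold change of 0.75. Their summed level over all libraries of a diet had a low of 422, a median of 701 and a high of 1748 CPM on 16-week HFD and 311, 450.1 and 648 CPM on 6-week HFD, against 235, 392 and 947 CPM on chow. Macrophage markers were therefore higher on 16-week HFD together with the set, and their part in the 16-week result was not tested. With metformin 0 of the 13 were called on either fat diet by edgeR or DESeq2 (3 and 1 at an unadjusted p under 0.05, after 16 and 6 weeks), with medians of 0.50 and 0.53. The medians of the 46 interferon-stimulated genes were 0.76 and 0.96 in these comparisons.

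Of 9 T and NK cell genes tested, 0 were called in basal 16-week HFD livers (1 at an unadjusted p under 0.05, 0 by DESeq2) and 5 were higher in basal 6-week HFD livers, with medians of 0.59 and 1.38. The shares of all genes called higher were 16.0% and 5.98%. The sum over 10 such genes was 3.41 to 4.31 CPM in basal 16-week HFD, 7.01 to 7.25 CPM in basal 6-week HFD and 2.19 to 2.97 CPM in basal chow livers, without overlap. Their part in the 6-week result was not tested. On 16-week HFD 2, 4, 1 and 1 of the 9 were higher at 15, 30, 60 and 120 min of insulin and 4 over the 6 states. Of all genes 12.3%, 20.1%, 10.9% and 14.5% were higher at these times and 33.5% over the 6 states, so 1 of 9 lay near the share of all genes. With metformin 1 of the 9 was higher after 16 weeks and 2 after 6 weeks, where 11.2% and 2.27% of all genes were. Of 7 plasmacytoid and other dendritic cell genes 0 were called by edgeR in basal livers on either fat diet (1 at an unadjusted p under 0.05 on each, 1 and 0 by DESeq2), and their sums of 19.4 to 22.6, 19.4 to 24.1 and 18.2 to 24.6 CPM in basal 16-week HFD, 6-week HFD and chow livers overlapped. On 16-week HFD 0, 5, 1 and 1 of the 7 were higher at 15, 30, 60 and 120 min of insulin (at 15 min 1 at an unadjusted p under 0.05 and 1 by DESeq2) and 2 over the 6 states. Beside the shares of all genes given above, the counts at 60 and 120 min and over the 6 states lay near background.

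Markers of other cell types were called in some states. In basal livers 16.0% of all genes were higher and 16.3% lower after 16 weeks, and 5.98% were higher after 6 weeks. On 16-week HFD 20.1% were higher at 30 min of insulin. Over the 6 states 33.5% were higher and 29.1% lower. The lists are short, so counts of 1 gene say little beside these shares. Of 3 pan-leukocyte genes 1 was higher in basal 16-week HFD livers and 3 over the 6 states, with medians of 0.70 and 0.85, and 0 in basal 6-week HFD livers (0 at an unadjusted p under 0.05, 0 by DESeq2; median 0.18). Their sum was 29.3 to 47.4 CPM in basal 16-week HFD, 26.4 to 31.4 CPM in basal 6-week HFD and 20.3 to 30.8 CPM in basal chow livers. Of 7 stellate cell and matrix genes 3 were higher and 1 lower in basal 16-week HFD livers and 1 was higher in basal 6-week HFD livers, with medians of 0.45 and 0.80, and 4 were higher and 1 lower over the 6 states. Their sum was 186 to 448 CPM in basal 16-week HFD, 304 to 369 CPM in basal 6-week HFD and 287 to 304 CPM in basal chow livers. Of 8 genes of liver endothelium 0 were called in basal livers of either fat diet (2 and 1 at an unadjusted p under 0.05, 0 by DESeq2), with medians of 0.20 and -0.18, while 6 were higher on 16-week HFD at 30 min of insulin and 6 over the 6 states. Their sum was 346 to 499 CPM in basal 16-week HFD, 348 to 366 CPM in basal 6-week HFD and 319 to 421 CPM in basal chow livers. None of the genes on these 3 lists was at 0, and the part of these cells in the results was not tested.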

How the data were processed

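Raw read counts per gene were used, as deposited by the authors; per the labels' protocols they come from polyA RNA in unstranded TruSeq version 1 libraries read as paired ends. Per the submitters' processing notes, TopHat 1.4.0, HTSeq (version not stated), a refFlat gene model, the mm9 build and DESeq2 1.0.18 were used; the deposited normalized signal values were not used here. Genes were kept by filterByExpr (minimum count 10), libraries scaled by TMM, and all 45 libraries fitted in edgeR 4.0.16 with 1 coefficient for each of 14 groups. In each of 28 comparisons the quasi-likelihood F test was adjusted by Benjamini-Hochberg over 14067 genes and called under 0.05. The SE is the absolute log2 fold change over the square root of F, and log2 CPM had a prior count of 2. DESeq2 1.42.0 was an alternative; the fit was tested on simulated data. R 4.3.3, Python 3.11.15 and matplotlib 3.10.9 were used.

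The 46 genes, their role groups and the other lists were chosen with earlier results of these data known. By rule, the text follows the gene with the smallest adjusted p over the 6 states in each role group, genes called against the others, up to 6 genes per pathway list and the 10 most correlated genes; other genes were named after their values were seen. Some results under this rule are not reported here. Shared 40-base words come from GENCODE M21 transcripts. Same-numbered basal and metformin libraries deviated together on 6-week HFD (correlations 0.41, 0.16 and 0.3) and 16-week HFD (0.24, 0.15 and 0.12). On chow they did not (-0.04, -0.2 and 0.29). Basal chow libraries also deviated together with 6-week HFD metformin libraries (0.29, 0.13 and 0.25), across diets. So did libraries of the 15 and 120 min groups, for chow (0.35, 0.15 and 0.1) and for 16-week HFD (0.38, 0.22 and 0.57). Any such pairing comes from the data, and no label says what a number marks.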

Additional observations from a re-analysis of the deposited data

Results flagged for a closer look

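Among 46 genes tested for a library that stands apart in the group of 6 livers 30 min after insulin on 16-week HFD, 2 had one; chance alone flags about 1 in 20 groups. Oas3 had 7.87 CPM in replicate 1, and the other 5 libraries had 3.45 to 4.95 CPM. Gbp7 had 37.4 CPM in replicate 4, and the other 5 had 25.6 to 28.2 CPM. The response of Mx2 to 120 min of insulin differed between diets by the test of the difference itself: 16-week HFD minus chow it was -1.56 ± 0.38 on the log2 scale (SE, edgeR, adjusted p = 0.04). The call was lost in 9 of 12 fits that left out 1 library each and when only the 4 groups involved were fitted.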

How the results depend on the processing

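Settings tried were RLE scaling, no filter on low counts, DESeq2, a block for the replicate number, removal of exon length and GC trends, the block with that removal, a fit of only the groups compared, 30 min of insulin on 16-week HFD without replicates 4 to 6, and leaving out each library in turn; the mean of the 4 insulin times alone was added after seeing the data. Of 115 single-gene results, 96 kept direction and call in every setting run for them, 0 reversed, and 78 of 2906 values lost the call. Of 28 counts of called genes, 15 stayed within 1.5 times in every setting run for them, the fits without a library included. Fitting only the groups compared gave 2 genes for 16- against 6-week HFD in basal livers (0 as reported), 9 (28) and 13 (32) for 16-week and 6-week HFD against chow with metformin, 1 (0) for 30 min of insulin on chow, 5 (2) for metformin on chow and 0 (5) on 16-week HFD. Of all genes it called, in this order, 904 (1436), 285 (2871), 476 (623), 61 (10), 518 (273) and 14 (3992). DESeq2 gave 1 (0) for 16- against 6-week HFD, 1 (0) for 60 min on chow, 4 (1) for 30 min on 16-week HFD, 4 (2) for metformin on chow, 1 (0) on 6-week HFD, and 2 (1) for 120 min by diet. The replicate block gave 1 (0) for 16- against 6-week HFD, 3 (1) for 30 min on 16-week HFD and 1 (0) for metformin on 6-week HFD. The block with trends removed gave 4 (1) for 30 min and 3 (5) for metformin on 16-week HFD, 0 (1) for 120 min by diet and, like the trends alone, 1 (0) for metformin by diet on 16-week HFD. Without replicates 4 to 6 the 30 min count was 3 (1), and without the filter metformin on chow gave 1 (2). For 120 min by diet the fit of only the groups compared again called 1 gene, but Trim25 in place of Mx2. The cause of these shifts was not tested. The block changed no other count by over 1.5 times. Basal livers also differed in the GC trend. The rank correlations of a gene's deviation with its GC content were 0.28, 0.32 and 0.17 on 16-week HFD. They were -0.18, -0.23 and -0.15 on 6-week HFD, and -0.08, -0.29 and -0.29 on chow.

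Leaving out 1 library gave 40 to 41 genes called for 16-week HFD and 33 to 42 for 6-week HFD against chow in basal livers, 16 to 31 and 15 to 34 with metformin, 32 to 37, 39 to 44, 36 to 42 and 34 to 44 at 15, 30, 60 and 120 min, and 46 to 46 over the 6 states. It gave 0 to 0 for 16- against 6-week HFD in basal livers and 0 to 1 with metformin. For insulin it gave 0 to 1, 0 to 0, 0 to 1 and 2 to 3 on chow and 0 to 0, 0 to 2, 0 to 0 and 0 to 0 on 16-week HFD, and by diet 0 to 0, 0 to 0, 0 to 0 and 0 to 1. For metformin it gave 0 to 6 on chow, 0 to 1 on 6-week and 1 to 6 on 16-week HFD, and by diet 0 to 0 on 6-week and 0 to 1 on 16-week HFD. Depth limits the interferon genes, none of which reached the count filter.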
